A study of Mus musculus with 12 samples.

Results

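The comparison asked how far the loss of 1 microRNA from heart muscle cells, with no injury, moved the left ventricle toward the state of an infarcted control heart. It set the 3 arrays labelled sham miR-150 cKO directly against the 3 labelled MI miR-150 fl/fl, 6 of the 12 arrays in the series, each hybridised with RNA from a separate mouse. Sham miR-150 cKO mice carried alpha-MHC-Cre and floxed miR-150 alleles and had sham surgery; MI miR-150 fl/fl mice carried floxed miR-150 alleles without Cre and had a myocardial infarction. All were on the C57BL/6J strain, and the left ventricles were taken 4 weeks after surgery, at 14 to 15 weeks of age for sham miR-150 cKO and 14 weeks for MI miR-150 fl/fl. The 3 sham miR-150 fl/fl arrays (13 to 14 weeks of age) are shown beside both as the uninjured control. The 3 MI miR-150 cKO arrays entered the fit only.

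Genotype, the Cre transgene and surgery all differed at once between the groups compared, so a difference cannot be assigned to any of them, and Cre alone was not among the 4 groups. The alpha-MHC promoter drives Cre in heart muscle cells, while other cells of the ventricle kept their miR-150 alleles intact. RNA came from whole ventricle, in which fewer cells of a type and less RNA per cell cannot be told apart, and an infarcted ventricle holds scar as well as surviving muscle. Each group held both sexes, with 1 male and 2 females in each.

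As background, microRNAs are short RNAs that guide silencing proteins to partly complementary messenger RNAs, chiefly through the seed near their 5′ end, and miR-150 is best known from lymphocytes and has also been studied in the injured heart. A stressed ventricle switches on a fetal gene program, with natriuretic peptides released from muscle cells to lower blood volume and pressure and slow beta myosin replacing part of the fast alpha form. After an infarct, fibroblasts turn into matrix-secreting cells that lay down collagen, and macrophages enter the tissue to clear debris.

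The 3p arm is the partner strand of miR-150-5p, the arm the study calls miR-150, and is printed only because it places the deleted gene in the genome, at chr7:45121798-45121819 on the plus strand of GRCm38.p6. Capitals mark its seed, bases 2 to 8 from the 5′ end, in the RefSeq sequence.
mmu-miR-150-3p: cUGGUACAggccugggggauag

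The promoters of 3 stress genes whose mean level in sham miR-150 cKO was above the infarct mean are printed next, from 250 bases before to 50 after the transcription start, 5′ to 3′ on the strand of the gene, from RefSeq on GRCm38.p6. Capitals mark matches to GATAA, the core that GATA factors bind, to CATTCC, the core that TEAD factors bind, and to TGANTCA, the site of AP-1, each searched on both strands, with no overlap between the matches. Nppa lies at chr4:148000472-148000771 and Nppb at chr4:147985650-147985949, both on the plus strand. Sprr1a lies at chr3:92485832-92486131 on the minus strand.
Nppa: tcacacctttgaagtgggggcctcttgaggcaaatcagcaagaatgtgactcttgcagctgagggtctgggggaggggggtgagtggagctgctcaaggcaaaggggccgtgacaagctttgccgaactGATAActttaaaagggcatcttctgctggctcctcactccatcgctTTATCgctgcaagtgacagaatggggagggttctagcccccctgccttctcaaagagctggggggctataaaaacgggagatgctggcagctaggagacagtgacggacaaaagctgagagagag
Nppb: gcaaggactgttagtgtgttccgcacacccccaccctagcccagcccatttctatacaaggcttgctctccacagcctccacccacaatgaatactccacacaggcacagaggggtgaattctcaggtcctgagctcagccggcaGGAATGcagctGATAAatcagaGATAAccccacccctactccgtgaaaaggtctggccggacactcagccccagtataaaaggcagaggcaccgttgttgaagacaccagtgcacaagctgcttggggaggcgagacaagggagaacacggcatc
Sprr1a: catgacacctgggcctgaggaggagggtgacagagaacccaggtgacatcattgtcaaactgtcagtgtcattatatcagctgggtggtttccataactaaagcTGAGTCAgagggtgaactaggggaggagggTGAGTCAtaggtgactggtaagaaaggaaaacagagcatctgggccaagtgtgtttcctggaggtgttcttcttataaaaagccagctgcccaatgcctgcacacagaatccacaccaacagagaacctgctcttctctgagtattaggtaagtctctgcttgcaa
Nppa held 2 GATAA matches, which began 121 and 75 bases before the start. Nppb held 2 GATAA matches, at 94 and 83 bases before the start, and 1 CATTCC match at 105 bases. Sprr1a held 2 TGANTCA matches, at 146 and 116 bases before the start, and neither of the other motifs. Among all 32817 RefSeq promoters of this length, 25.4% held GATAA, 14.7% held CATTCC and 7.81% held TGANTCA on either strand. These are matches of letters, and binding was not measured.

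Levels are log2 intensities relative to the 75th percentile of the same array, so 0 is the level of that percentile, and differences are sham miR-150 cKO minus MI miR-150 fl/fl on that log2 scale. A transcript was counted as past the limits where the fold was at least 1.5 and the unadjusted p of limma under 0.05. Of 54232 transcripts tested, 415 (0.765%) were higher past the limits in sham miR-150 cKO and 1772 (3.27%) were lower. By limma the lowest adjusted p was 0.0743, so none was under 0.05, while the unadjusted p was under 0.05 for 7298. The 95% interval of the difference lay within 2-fold in either direction for 45784 transcripts (84.4%), and the median difference over all transcripts was -0.03. The groups did not overlap for 4718 transcripts that were higher (8.7%) and 4174 that were lower (7.7%). With 3 arrays against 3, the smallest p of an exact 2-sided permutation test is 0.1, so single genes below rest on the model fitted across all transcripts.

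The counts depended on single arrays and on scaling. Sham miR-150 cKO replicate 1 had the largest share of probes above background of the 6 arrays, 90.3% against 74.1% and 76.1% for the other sham miR-150 cKO arrays and 81.5% to 87.9% for MI miR-150 fl/fl. Leaving it out gave 1140 higher and 3926 lower transcripts, and 824 that reached an adjusted p under 0.05. Without sham miR-150 cKO replicate 2, 581 were lower. Higher calls were 19% of all calls with percentile scaling and 33.6% after quantile normalization. The 12 arrays fell into 2 scans, and within 1 row of the second scan lay sham miR-150 cKO replicates 2 and 3 with MI miR-150 fl/fl replicates 1 and 2, so values with scan and row as blocks rest on those 4 arrays alone. In the other row of that scan lay sham miR-150 cKO replicate 1 and all sham miR-150 fl/fl arrays. MI miR-150 fl/fl replicate 3 lay in the first scan. Infarcted and uninjured control arrays thus never shared a row of a scan, and their difference cannot be told apart from row or scan. Of sham miR-150 cKO, only replicate 1 shared a row with the uninjured controls.

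Gene names came from a table that lists transcripts differing between groups on these same arrays, so a gene was named because sham miR-150 cKO was apart from sham miR-150 fl/fl, because MI miR-150 fl/fl was, or because the MI groups differed. A name of the first kind favours a high or low sham miR-150 cKO level, and a name of the second or the last kind an extreme MI miR-150 fl/fl level. The members of the lists, Serpinb1c among the stress genes included, were also chosen with earlier results of these data known. The lists below and their counts are therefore no independent evidence of a direction. Of 863 named genes, 52 passed the limits upward and 59 downward, with a median difference of 0.11.

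No stress gene was lower past the limits in uninjured miR-150 cKO ventricles than in infarcted control ventricles, and 5 of 11 named were higher, namely Myh7, Serpinb1c, Nppb, Gdf15 and Ankrd1. The shares over all transcripts were 0.765% higher and 3.27% lower. The difference was above 0 for 10 of them, with a median of 0.69 beside -0.03 over all transcripts. Without sham miR-150 cKO replicate 1, 2 or 3, the number higher was 6, 3 and 8 and the median 0.74, 0.37 and 1.1. The number higher was 3 when MI miR-150 fl/fl replicate 1 was left out, 2 by the unpaired test and 4 with scan and row as blocks. Without sham miR-150 cKO replicate 1, without MI miR-150 fl/fl replicate 2, and with scan and row as blocks, 1 stress gene was lower past the limits. In the naming table, 6 of the 11 were raised in sham miR-150 cKO and 4 of those also in MI miR-150 fl/fl, while 5 were named from the MI groups alone. There 9 of the 11 were named as higher in MI miR-150 cKO than in MI miR-150 fl/fl. That favours a low MI miR-150 fl/fl level, and the 6 favour a high sham miR-150 cKO level. Apart from the 4 raised in MI miR-150 fl/fl, the naming thus favours differences above 0.

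The natriuretic peptide genes were among those named as raised in both groups. Nppb, which encodes B-type natriuretic peptide, had levels of 6.13, 5.80 and 5.33 in sham miR-150 cKO, 4.31, 5.11 and 4.61 in MI miR-150 fl/fl, and 2.99, 3.65 and 3.65 in sham miR-150 fl/fl. Every miR-150 cKO array was above every infarcted control array, and all 6 were above the uninjured controls. The difference was 1.08 ± 0.32 (SE, n = 3 arrays per group), 2.11-fold with a 95% interval of 1.29 to 3.45, at an unadjusted limma p of 0.00688 and an adjusted p of 0.301. With scan and row as blocks it was 0.85, no longer past the limits.

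Nppa, which encodes atrial natriuretic peptide, had levels of 5.82, 6.55 and 5.02 in sham miR-150 cKO against 5.04, 4.83 and 5.27 in MI miR-150 fl/fl. The lowest miR-150 cKO array, replicate 3, lay among the infarcted controls, and the other pair lay above all of them. All 6 exceeded the sham miR-150 fl/fl levels of 3.36, 3.89 and 4.15. The difference was 0.75, with a 95% interval of -0.03 to 1.53, so that a level equal to the infarct and one up to 2.9-fold above it were both within the interval. The difference was 0.37 without sham miR-150 cKO replicate 2 and 1.14 without replicate 3, and it passed the limits in the latter case and with normexp background correction. The fitted distance from sham miR-150 fl/fl was 2.33 for Nppb and 2.0 for Nppa in miR-150 cKO hearts, and 1.25 for each after infarction. The gap between these distances is the direct difference already given, whose interval for Nppa included 0.

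Sprr1a, which encodes a small proline-rich protein that injured and stressed cells produce, had levels of 1.45, 0.82 and -0.16 in sham miR-150 cKO and -0.13, -0.15 and 0.33 in MI miR-150 fl/fl. Replicates 1 and 2 of miR-150 cKO stood above the infarcted controls and replicate 3 among them. The uninjured controls lay lower on every array, at -1.40, -1.04 and -1.40. The difference was 0.69, with a 95% interval of -0.20 to 1.57, and was not past the limits. It was 0.31 without sham miR-150 cKO replicate 1 and 1.12, past the limits, without replicate 3.

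Myh7, the slow beta myosin heavy chain, showed the largest difference of any named gene. Its levels were 7.78, 7.85 and 6.19 in sham miR-150 cKO and 4.68, 5.19 and 4.84 in MI miR-150 fl/fl. The groups were a full log2 unit apart at their nearest arrays. The uninjured controls spread widely, at 3.83, 6.23 and 4.97, and their highest array was above the lowest miR-150 cKO array. The difference of 2.37 ± 0.56 (SE, n = 3 arrays per group) was 5.18-fold, with a 95% interval of 2.20 to 12.2, at an unadjusted limma p of 0.00152 and an adjusted p of 0.301. It was past the limits under every alternative run, with values between 2.08 and 2.92. Myh7 was named from the contrast of the MI groups, which favours a low level in MI miR-150 fl/fl.

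**Figure D1:**
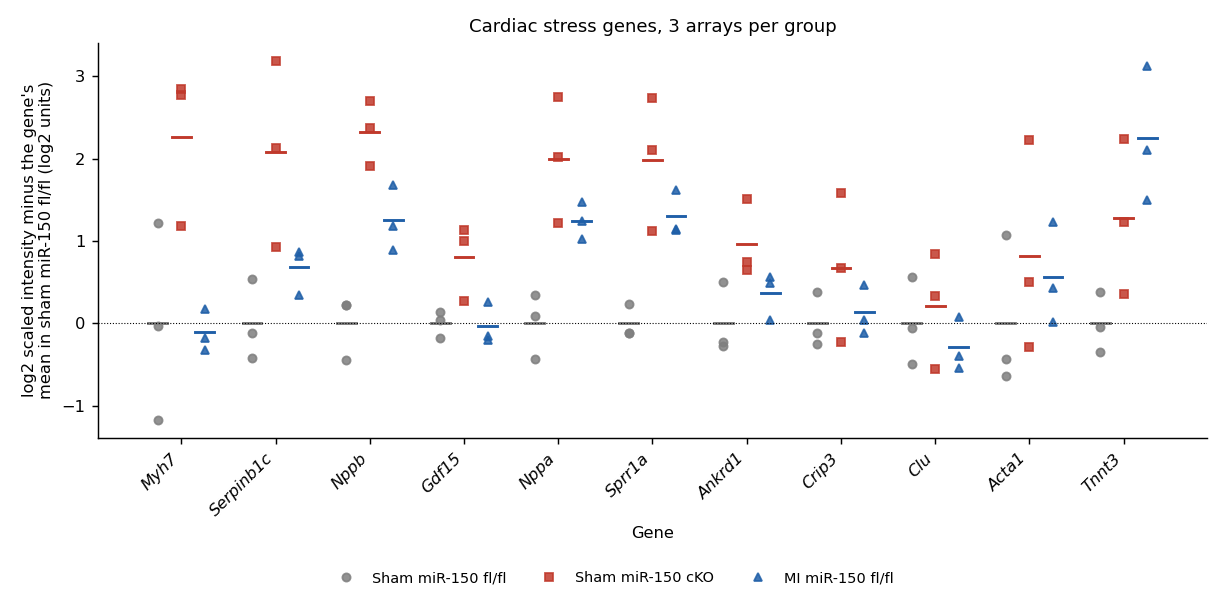
Levels of the 11 stress genes on each array (points) with group means (bars), as log2 scaled intensity minus the mean of the same gene in sham miR-150 fl/fl, 3 arrays per group. For Nppb, Nppa and Sprr1a both the sham miR-150 cKO and the MI miR-150 fl/fl arrays lie above the uninjured controls, and for Myh7 and Gdf15 the infarcted controls lie near the uninjured ones.

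Gdf15, a secreted member of the TGF-beta superfamily that marks tissue stress, had levels of 1.88, 2.02 and 1.16 in sham miR-150 cKO and 0.73, 0.69 and 1.14 in MI miR-150 fl/fl. The lowest miR-150 cKO array barely cleared the highest infarcted control. The difference was 0.83 (95% interval, 0.31 to 1.36), and MI miR-150 fl/fl minus the uninjured controls was -0.03. Ankrd1, a muscle ankyrin repeat protein induced by stretch, had levels of 9.14, 10.01 and 9.24 in sham miR-150 cKO against 8.99, 8.53 and 9.05 in MI miR-150 fl/fl. These groups did not overlap, though their nearest arrays were close. The difference of 0.60 was at the edge of the fold limit and lost its call under 11 of 24 alternatives.

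Acta1, the skeletal alpha-actin of the fetal program, had levels of 0.90, 2.63 and 0.12 in sham miR-150 cKO and 1.63, 0.43 and 0.84 in MI miR-150 fl/fl. The miR-150 cKO arrays lay on both sides of the infarcted controls, and the 95% interval of the difference ran from -1.16 to 1.67. Serpinb1c, a serine protease inhibitor gene, had levels of -0.27, 0.80 and -1.46 in sham miR-150 cKO and -2.05, -1.57 and -1.52 in MI miR-150 fl/fl. The third miR-150 cKO array was close to the infarcted controls, and without sham miR-150 cKO replicate 2 the difference fell from 1.4 to 0.85 and lost its call. Tnnt3, the fast skeletal troponin T, was the only stress gene with a difference below 0, at -0.97, and it was above background on 1 sham miR-150 cKO array, on 3 MI miR-150 fl/fl arrays and on 0 uninjured controls. Clu and Crip3 differed by 0.50 and 0.54, with overlapping groups.

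By their medians, genes of the scar matrix in miR-150 cKO ventricles lay between the uninjured and the infarcted controls. Of 20 named matrix genes, none was higher and 2, Fn1 and Lect1, were lower past the limits in sham miR-150 cKO than in MI miR-150 fl/fl. The difference was below 0 for 16, the groups did not overlap for 9, all of them lower, and the median difference was -0.35. Of all transcripts, 3.27% were lower past the limits and 7.7% were lower without overlap. The median distance from sham miR-150 fl/fl was 0.66 in sham miR-150 cKO and 0.79 in MI miR-150 fl/fl. For 11 of the 20 the interval of the difference lay within 2-fold, beside 84.4% of all transcripts. Without single arrays the number lower ran from 1 to 5, with 5 when sham miR-150 cKO replicate 1 was left out. The naming favours this order, since 16 of the 20 were named as raised in MI miR-150 fl/fl and 5 as raised in sham miR-150 cKO.

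The collagen genes Col1a1, Col1a2 and Col3a1, whose fibrils give scar its strength, followed that order without passing the limits. Col1a1 had levels of -2.12, -2.23 and -2.59 in sham miR-150 cKO, -1.99, -1.88 and -1.97 in MI miR-150 fl/fl, and -3.16, -2.69 and -2.95 in sham miR-150 fl/fl. Col1a2 had levels of 3.67, 3.55 and 3.33 in sham miR-150 cKO, 4.16, 4.05 and 4.13 in MI miR-150 fl/fl, and 2.49, 3.10 and 2.65 in sham miR-150 fl/fl. In both type I collagen genes the 3 groups formed steps with no overlap. Col3a1 had levels of 4.20, 3.78 and 3.57 in sham miR-150 cKO, 4.31, 4.53 and 4.33 in MI miR-150 fl/fl, and 1.24, 3.13 and 2.78 in sham miR-150 fl/fl. Again no array of one group reached the next, although the infarcted controls were within 0.12 log2 units of each other by SD and the uninjured controls within 1.0.

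The differences between miR-150 cKO and infarcted ventricles were -0.36 for Col1a1 (95% interval, -1.04 to 0.31), -0.60 for Col1a2 (-1.20 to 0.01) and -0.54 for Col3a1 (-1.46 to 0.38). Col1a2 passed the limits under 10 of 24 alternatives.

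Fn1, fibronectin, the early scaffold of a healing wound, had levels of -0.21, -1.17 and -0.42 in sham miR-150 cKO and 0.09, 0.47 and 0.49 in MI miR-150 fl/fl. Its miR-150 cKO arrays overlapped those of the uninjured controls, at -1.99, -0.69 and -1.22, and not those of the infarcted ones. The difference was -0.95 ± 0.40 (SE, n = 3 arrays per group), 1.93-fold lower with a 95% interval of 1.04 to 3.59, at an unadjusted limma p of 0.04 and an adjusted p of 0.353. The call was lost under 8 of 24 alternatives, among them leaving out sham miR-150 cKO replicate 2, at -0.66, and scan as a block. Lect1, now Cnmd, the gene of a cartilage matrix glycoprotein, had levels of -4.03, -4.29 and -4.18 in sham miR-150 cKO against -3.18, -2.69 and -3.04 in MI miR-150 fl/fl. It was above background on 1 of the 3 miR-150 cKO arrays and on all infarcted ones, and the fitted difference was -1.20.

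Eln, elastin, had levels of 3.56, 2.54 and 2.21 in sham miR-150 cKO and 2.72, 3.25 and 3.57 in MI miR-150 fl/fl. Comp, a matrix protein that binds collagen, had levels of 3.46, 1.95 and 2.67 in sham miR-150 cKO and 2.68, 2.63 and 3.27 in MI miR-150 fl/fl. For both genes miR-150 cKO replicate 1 was as high as the highest infarcted control, and the groups overlapped. The difference was -0.41 (95% interval, -1.19 to 0.37) for Eln and -0.17 (-1.04 to 0.71) for Comp. Bgn, the proteoglycan biglycan, and Ltbp3, a binding protein of latent TGF-beta, were lower on every miR-150 cKO array, by 0.42 and 0.45, without passing the limits. Col8a1, a short-chain collagen, differed by 0.28 and Col5a2, a chain of type V collagen, by 0.14.

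**Figure D2:**
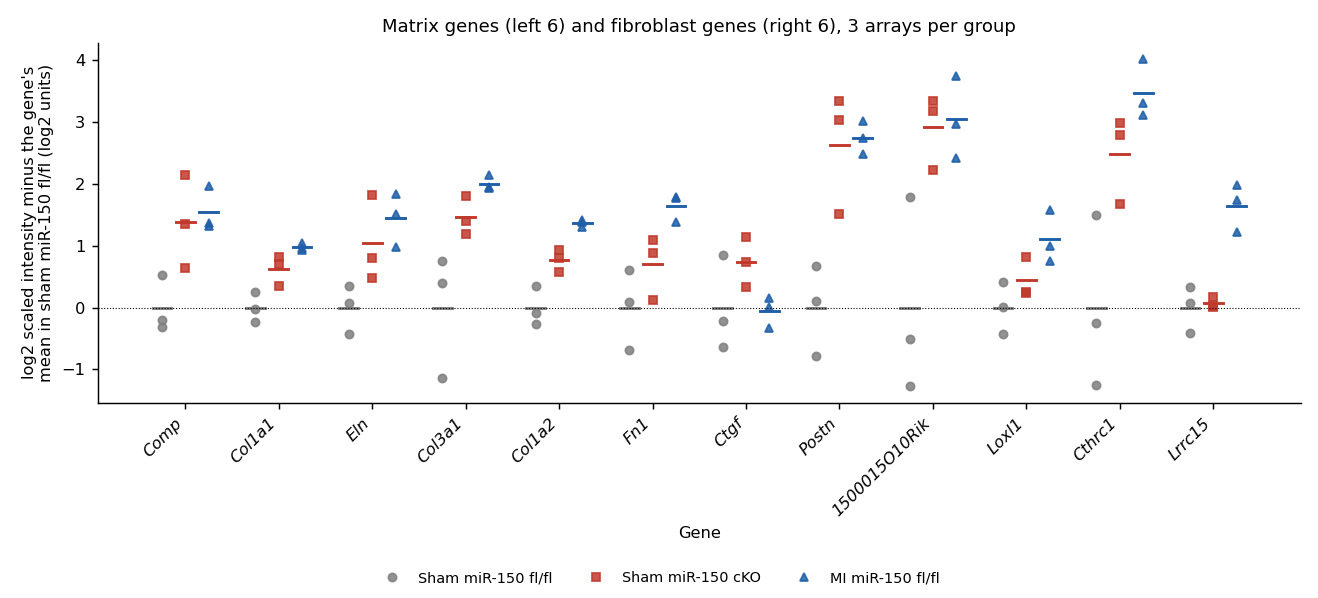
Levels of 6 matrix genes and 6 fibroblast genes on each array (points) with group means (bars), as log2 scaled intensity minus the mean of the same gene in sham miR-150 fl/fl, 3 arrays per group. The type I collagens and Col3a1 step up from uninjured control to sham miR-150 cKO to MI miR-150 fl/fl, Postn and 1500015O10Rik sit at like heights in the last pair, and Lrrc15 lies above the uninjured controls in MI miR-150 fl/fl only.

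Genes of activated fibroblasts and matrix processing included Postn, with a difference near 0, and Lrrc15, which was not above background on any sham miR-150 cKO array. Of 32 named genes, none was higher and 2, Lrrc15 and Loxl1, were lower past the limits in sham miR-150 cKO. The difference was below 0 for 23, the groups did not overlap for 8 lower and 1 higher, and the median difference was -0.18. Of all transcripts, 3.27% were lower past the limits, and 7.7% were lower and 8.7% higher without overlap. The median distance from sham miR-150 fl/fl was 0.64 in sham miR-150 cKO and 0.81 in MI miR-150 fl/fl. For 20 of the 32 the interval of the difference lay within 2-fold, beside 84.4% of all transcripts. Of these genes, 12 were named as raised in both groups, 13 more in MI miR-150 fl/fl alone and 2 more in sham miR-150 cKO alone. The number lower was 5 without sham miR-150 cKO replicate 1, with a median of -0.32, and also 5 with scan and row as blocks.

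Postn, periostin, the matrix protein secreted by activated fibroblasts, had levels of 2.24, 0.41 and 1.94 in sham miR-150 cKO and 1.64, 1.39 and 1.91 in MI miR-150 fl/fl. The miR-150 cKO arrays spanned the infarcted controls, and both groups stood above the uninjured levels of -1.88, -0.43 and -0.99. The difference was -0.12, with a 95% interval of -1.18 to 0.94, and the distances from sham miR-150 fl/fl were 2.63 for miR-150 cKO and 2.75 for infarction. 1500015O10Rik, now Ecrg4, the gene of a secreted peptide precursor, had levels of -1.72, -2.82 and -1.87 in sham miR-150 cKO and -2.63, -2.09 and -1.31 in MI miR-150 fl/fl. These overlapped as well, with a difference of -0.13 (95% interval, -1.64 to 1.38), and only 1 of the 3 uninjured arrays was above background.

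Cthrc1, a secreted protein of collagen-producing fibroblasts, had levels of -1.44, -2.74 and -1.63 in sham miR-150 cKO and -1.31, -1.11 and -0.40 in MI miR-150 fl/fl. Every miR-150 cKO array was below every infarcted one, by little for replicate 1, and the uninjured controls ranged from -5.68 to -2.91. The difference was -1.0, and its 95% interval of -2.46 to 0.47 left both no difference and a several-fold shortfall possible. Loxl1, which crosslinks elastin, had levels of -1.92, -2.49 and -2.50 in sham miR-150 cKO and -1.75, -1.16 and -2.0 in MI miR-150 fl/fl. Its groups overlapped at 1 array, and its difference of -0.67 lost the call under 7 of 24 alternatives.

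Lrrc15, a membrane protein of a scar fibroblast state, had levels of -5.53, -5.53 and -5.38 in sham miR-150 cKO and -5.21, -5.48 and -5.95 in sham miR-150 fl/fl, with no array of either group well above background. In MI miR-150 fl/fl they were -3.56, -3.81 and -4.33, with all 3 above background. Against the lowest signal measured above background, MI miR-150 fl/fl was at least 1.19-fold higher than sham miR-150 cKO and at least 1.43-fold higher than sham miR-150 fl/fl; this bound takes the higher of that signal and the probe's own on each array. The fit gave a difference of -1.58 with an adjusted limma p of 0.301, and with normexp background correction it was -0.30 and not past the limits.

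Ctgf, now Ccn2, a matricellular growth factor, went the other way. Its levels were 1.43, 0.62 and 1.02 in sham miR-150 cKO and 0.29, -0.05 and 0.44 in MI miR-150 fl/fl. All miR-150 cKO arrays were above all infarcted ones, and the uninjured controls, at 1.14, 0.06 and -0.35, spanned both. The difference was 0.80, with a 95% interval of -0.00 to 1.59, at an unadjusted limma p of 0.0502, and it passed the limits under 9 of 24 alternatives. The gene was named from the contrast of the MI groups. Mmp3, a matrix protease, Loxl2, a collagen crosslinker, and Meox1, a fibroblast transcription factor, differed by 0.02, 0.04 and 0.01, each with an interval inside 2-fold.

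By their median difference, macrophage and leukocyte genes of uninjured miR-150 cKO ventricles stood to those of infarcted control ventricles much as all named genes did. None of 20 named genes passed the limits in either direction, beside 0.765% higher and 3.27% lower over all transcripts. The median difference was 0.15, beside 0.11 over all 863 named genes and -0.03 over all transcripts. Without MI miR-150 fl/fl replicate 1, 2 genes were higher past the limits, and in the other alternatives run at most 1 was higher and 1 lower. The difference was above 0 for 15, and the interval lay within 2-fold for 15 of the 20, beside 84.4% of all transcripts. The groups did not overlap for 4 higher genes (Ms4a7, Clec4n, Cd300a and Emr1) and 1 lower gene (Plac8). Of all transcripts, 8.7% were higher and 7.7% lower without overlap. The median distance from sham miR-150 fl/fl was 0.76 in sham miR-150 cKO and 0.63 in MI miR-150 fl/fl. Of these 20, 18 were named as raised in sham miR-150 cKO and 4 as raised in MI miR-150 fl/fl, a choice that favours miR-150 cKO.

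Emr1, now Adgre1, the gene of a macrophage surface receptor, had levels of 2.12, 2.16 and 2.09 in sham miR-150 cKO and 2.04, 1.67 and 1.79 in MI miR-150 fl/fl. The miR-150 cKO arrays were within 0.04 log2 units of each other by SD and lay just above the infarcted ones. Lyz2, lysozyme of myeloid cells, had levels of 4.54, 5.06 and 4.73 in sham miR-150 cKO and 4.72, 4.6 and 4.41 in MI miR-150 fl/fl. Those groups overlapped. The difference was 0.29 for Emr1 (95% interval, -0.18 to 0.75) and 0.20 for Lyz2 (-0.36 to 0.76). The uninjured controls were lower on every array for both genes, from 0.98 to 1.76 for Emr1 and from 3.35 to 4.37 for Lyz2.

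Cd14, a receptor for bacterial lipopolysaccharide, had levels of 2.12, 2.75 and 2.60 in sham miR-150 cKO and 2.35, 1.93 and 1.95 in MI miR-150 fl/fl. Mpeg1, a pore-forming protein of macrophages, had levels of 1.94, 2.18 and 2.08 in sham miR-150 cKO and 1.59, 2.13 and 2.01 in MI miR-150 fl/fl. Both pairs of groups overlapped, with differences of 0.42 (95% interval, -0.16 to 0.99) and 0.16 (-0.52 to 0.84). The ends of this list were Slamf9 at 0.52, an immune receptor gene, and Plac8 at -0.67, the latter above background on 1 sham miR-150 cKO array and on all MI miR-150 fl/fl arrays.

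**Figure D3:**
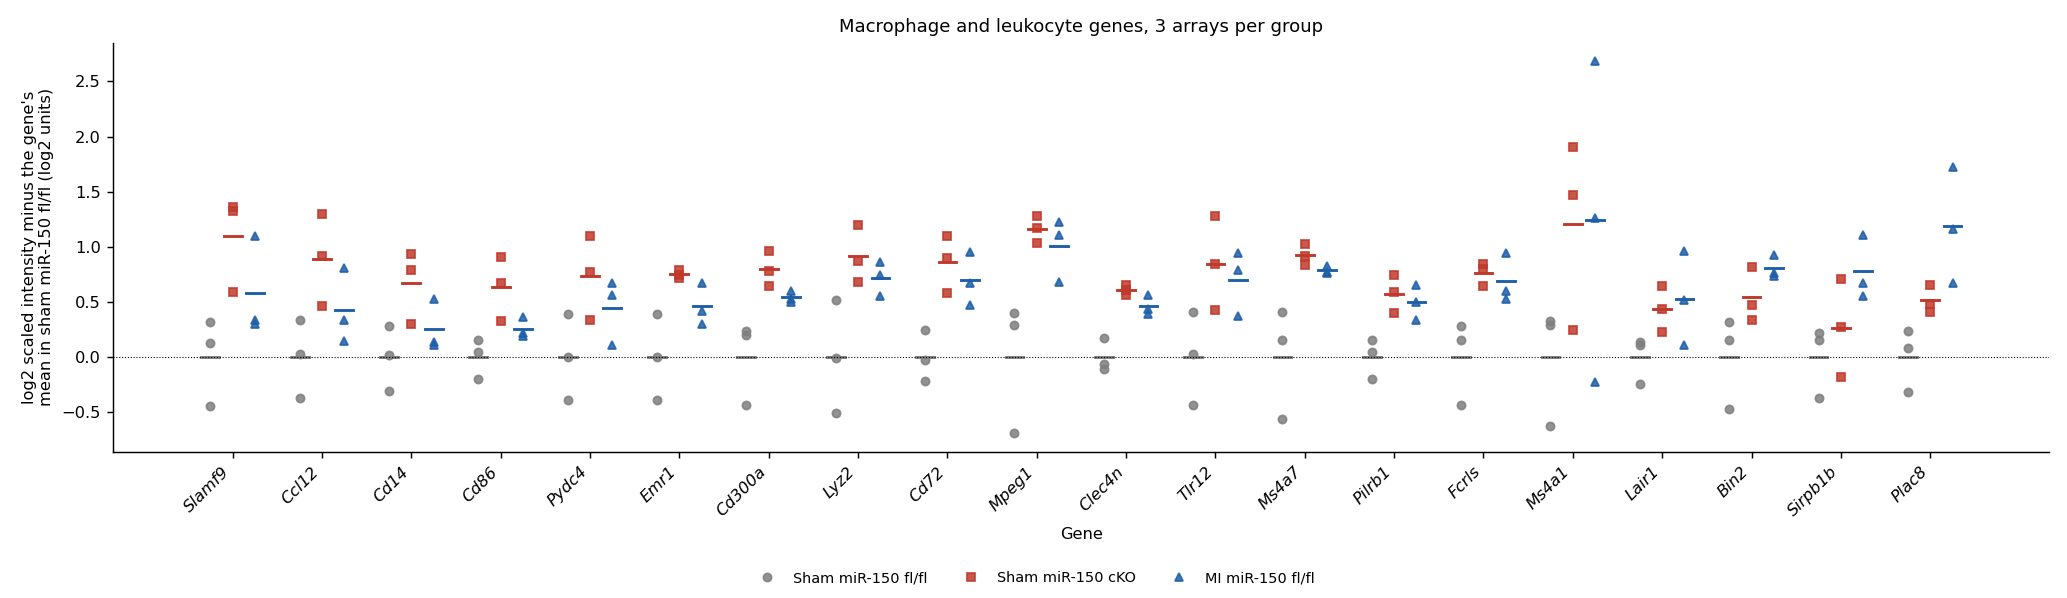
Levels of the 20 macrophage and leukocyte genes on each array (points) with group means (bars), as log2 scaled intensity minus the mean of the same gene in sham miR-150 fl/fl, 3 arrays per group. For most genes the arrays of sham miR-150 cKO lie with those of MI miR-150 fl/fl above the uninjured controls, as for Emr1, Lyz2 and Mpeg1.

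Named sarcomere and cytoskeleton genes outside the stress program were lower past the limits in miR-150 cKO ventricles or did not pass them. Of 18 sarcomere and cytoskeleton genes, 4 were lower past the limits (Myh8, Srl, Dmd and Fhl1), none was higher, and the median difference was -0.21. Among all transcripts, 3.27% were lower and 0.765% higher. The number lower was 2 without sham miR-150 cKO replicate 2, without MI miR-150 fl/fl replicate 2, by the unpaired test and within the shared scan, and 1 with normexp background correction, and 1 gene was higher without sham miR-150 cKO replicate 3. Of the 18, 16 were named from the MI groups alone. As many as 12 of the 18 were named as lower in MI miR-150 cKO than in MI miR-150 fl/fl, and 4 as higher. The former favours a high MI miR-150 fl/fl level and so a difference below 0. Myh8, the perinatal myosin heavy chain, had levels of 5.73, 5.36 and 4.98 in sham miR-150 cKO and 5.99, 6.32 and 6.33 in MI miR-150 fl/fl. The infarcted controls lay near the uninjured ones, at 6.19, 6.48 and 6.06, and above every miR-150 cKO array. The difference was -0.85 ± 0.19 (SE, n = 3 arrays per group), 1.81-fold lower, at an unadjusted limma p of 0.00103 and an adjusted p of 0.301, and it was past the limits under every alternative run.

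Dmd, dystrophin, which links the cytoskeleton to the membrane, differed by -0.67 and Srl, sarcalumenin, a calcium-binding protein of the sarcoplasmic reticulum, by -0.77, with no overlap. Fhl1 was above background on 1 of the 3 sham miR-150 cKO arrays. Tnnt2, cardiac troponin T, had levels of 2.96, 2.40 and 2.52 in sham miR-150 cKO and 2.92, 2.95 and 2.62 in MI miR-150 fl/fl. Tcap, the titin cap, had levels of 3.86, 3.87 and 3.92 in sham miR-150 cKO and 4.31, 4.06 and 3.91 in MI miR-150 fl/fl. Both differed by -0.21 with overlapping groups and intervals inside 2-fold.

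Among 11 ion handling genes, 2 were higher and 1, Kcnd2, was lower past the limits, with a median difference of 0.15 that ran from -0.0021 to 0.35 when single arrays were left out. Among all transcripts, 0.765% were higher and 3.27% lower. Kcnd2, a potassium channel of the transient outward current, had levels of -0.99, -1.71 and -1.36 in sham miR-150 cKO and -0.96, -0.78 and -0.55 in MI miR-150 fl/fl. Its nearest arrays almost touched, and its difference of -0.59 lost the call under 8 of 24 alternatives. Atp2a2, the calcium pump SERCA2, differed by 0.15 (95% interval, -0.37 to 0.66), at 6.28, 6.14 and 5.73 against 6.01, 5.37 and 6.33.

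The higher ion handling genes were the potassium channel genes Kcnj14, at 0.66, and Kcnj6, at 0.88, the latter above background on 1 array of each group. For Kcnma1, 1 of 5 probes, a dim one, was lower past the limits, while the brightest differed by -0.40 and was not.

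Fuel use genes showed 2 higher of 16 named, Pdk4 and Esrrb, none lower and a median difference of -0.01. The shares over all transcripts were 0.765% higher and 3.27% lower. Pdk4, the kinase that shuts glucose carbon out of the mitochondrion, had levels of 5.46, 6.08 and 5.88 in sham miR-150 cKO, 4.88, 5.18 and 4.93 in MI miR-150 fl/fl, and 7.01, 5.94 and 5.94 in sham miR-150 fl/fl. Infarcted controls were lowest on every array, and miR-150 cKO overlapped the uninjured controls. The difference was 0.81 (95% interval, 0.22 to 1.39), and it lost the call with quantile normalization and with the authors' values, at 0.64 in both. Ucp3, a mitochondrial carrier, had levels of 2.64, 3.23 and 3.01 in sham miR-150 cKO and 2.76, 2.74 and 2.56 in MI miR-150 fl/fl, with overlap, both below the uninjured range of 3.36 to 3.74. Esrrb, an orphan nuclear receptor gene, was dim, above background on 2 arrays of sham miR-150 cKO and on 1 of MI miR-150 fl/fl, and its difference was 1.22.

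None of 11 oxidative phosphorylation genes and none of 11 cytosolic ribosome genes passed the limits, with median differences of 0.07 and 0.04. All 11 of the former and 10 of the latter had intervals within 2-fold, beside 84.4% of all transcripts. The 22 genes were named from the MI groups alone. Of 7 Wnt pathway genes none passed the limits, and only Bcl9 and Fzd2 were above background on all 6 arrays. Wnt5a, a secreted Wnt ligand, had levels of -3.98, -4.74 and -5.12 in sham miR-150 cKO and -4.69, -4.78 and -4.76 in MI miR-150 fl/fl. Dvl1, a scaffold downstream of Wnt receptors, had levels of -4.40, -6.00 and -3.76 in sham miR-150 cKO and -5.58, -5.44 and -4.96 in MI miR-150 fl/fl. Neither was well above background on any MI miR-150 fl/fl array.

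Fat-cell and urinary protein genes varied widely between mice of the same group. None of 7 named genes passed the limits, all 7 differences were below 0, and the median was -1.18. The median was -0.40 without sham miR-150 cKO replicate 2, -0.36 without MI miR-150 fl/fl replicate 2 and -0.39 over the 5 genes left by a filter on all 12 arrays. Without sham miR-150 cKO replicate 3, 3 genes were lower past the limits, and with sex as a covariate 1 was. Adipoq, the fat-cell hormone adiponectin, had levels of -0.48, -2.58 and 0.01 in sham miR-150 cKO and -0.51, 1.5 and -0.50 in MI miR-150 fl/fl. Mup15 and Mup16 encode major urinary proteins whose near-identical copies one probe cannot separate. Mup15 had levels of -2.32, -4.80 and -0.51 in sham miR-150 cKO and -1.86, 1.45 and -1.88 in MI miR-150 fl/fl, and Mup16 had -2.51, -4.70 and -0.47 against -1.68, 1.41 and -1.85. In all of them miR-150 cKO replicate 2 was low and replicate 3 high, MI miR-150 fl/fl replicate 2 stood above the rest, and the groups overlapped. The 95% intervals ran from -2.83 to 0.46 for Adipoq, from -4.15 to 0.59 for Mup15 and from -4.15 to 0.45 for Mup16.

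**Figure D4:**
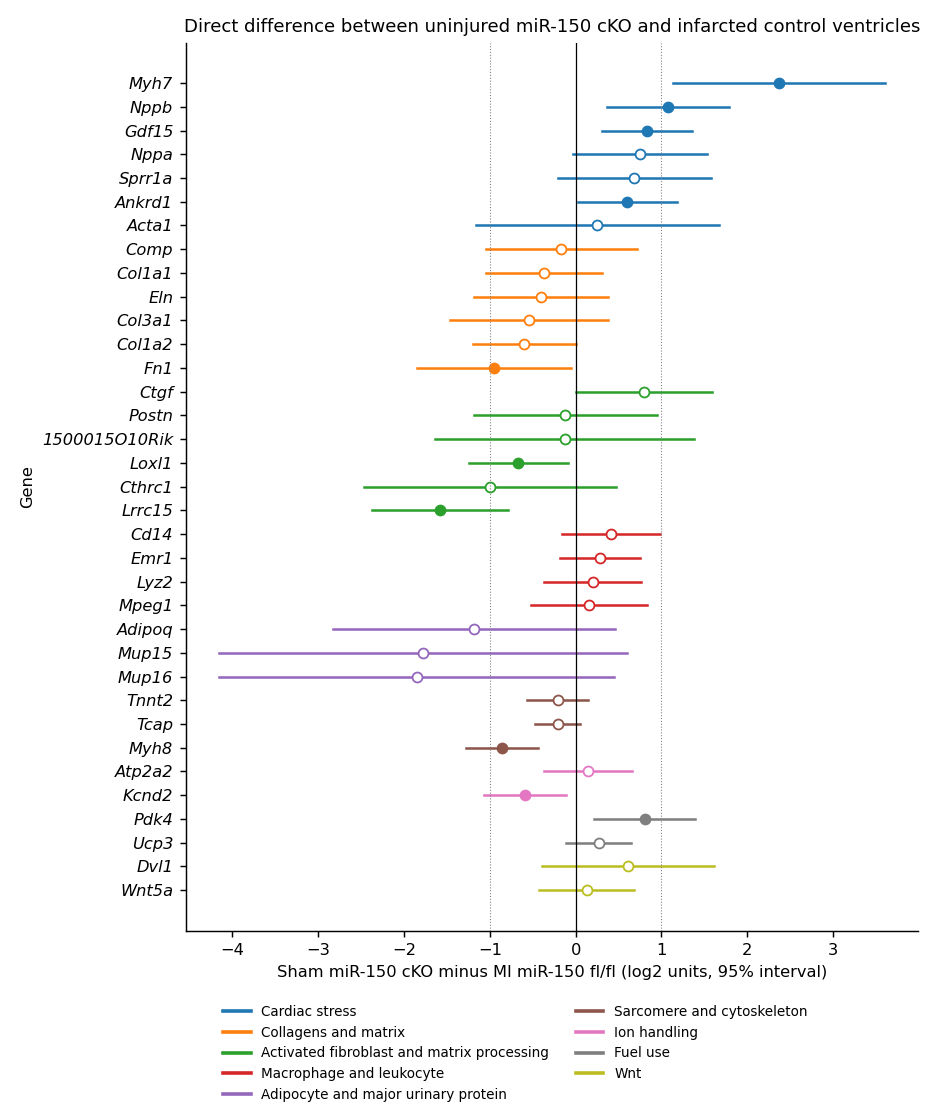
Sham miR-150 cKO minus MI miR-150 fl/fl (points, log2 units) with its 95% interval (lines) for the genes described by array, coloured by list, from limma on 12 arrays. Filled points are past the fold and p limits, and dotted lines mark a 2-fold difference either way. Most stress genes lie to the right of 0 and most matrix genes to the left. Macrophage genes lie slightly to the right, with intervals that cross 0.

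By size of difference, the 5 named genes furthest above MI miR-150 fl/fl with no overlap and above background on all 3 sham miR-150 cKO arrays were Myh7, Serpinb1c, Get4, Nppb and Cbfa2t3. Get4, a chaperone of tail-anchored membrane proteins, had levels of -3.75, -3.54 and -3.32 in sham miR-150 cKO and -5.16, -4.70 and -4.37 in MI miR-150 fl/fl, where 1 array was above background. With normexp background correction its difference fell from 1.21 to 0.34 and lost the call. Cbfa2t3, a transcriptional corepressor, had levels of 0.22, 0.92 and 0.87 in sham miR-150 cKO and -0.24, -0.58 and -0.18 in MI miR-150 fl/fl, and its difference of 1.0 was past the limits under every alternative run. For Cbfa2t3 the uninjured controls, at 0.34, 0.33 and 0.01, were closer to miR-150 cKO. Get4 and Cbfa2t3 were both named from the contrast of the MI groups alone, as higher in MI miR-150 cKO. That favours a low MI miR-150 fl/fl level and so a difference above 0.

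On the lower side, the same rule with all 3 MI miR-150 fl/fl arrays above background gave Fam131c, with a fitted difference of -1.73, Lrrc15, Tff3 at -1.52, Cd6 at -1.42 and Unc119b at -1.39. They entered through the group where they were high, and all were low in signal in sham miR-150 cKO, so their order has no meaning. Tff3, a mucosal repair peptide, and Cd6, a surface protein of T cells, were above background on 1 sham miR-150 cKO array, as was Unc119b, a lipid-binding trafficking protein. In these 3 genes sham miR-150 cKO replicate 1, the array with the largest share of probes above background, was the highest of its group, at -3.51 beside -5.70 and -4.86 for Tff3. With normexp background correction the differences were -0.82 for Fam131c, -0.27 for Tff3, -0.28 for Cd6 and -0.51 for Unc119b, and all but Fam131c lost their calls.

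Markers of the cell types in ventricle were checked where the naming table named them. Intensities were added before the log2 was taken, so the brightest marker weighs most in each sum. Among the cardiomyocyte markers that was Atp2a2. The cardiomyocyte markers named were 4 of 13 (Tnnt2, Tcap, Nkx2-5 and Atp2a2), and their summed level ran from 6.50 to 6.89 in sham miR-150 cKO, from 6.39 to 6.97 in MI miR-150 fl/fl and from 6.92 to 7.27 in sham miR-150 fl/fl. The fibroblast markers, 5 of 10, summed to 5.44 to 5.79, 5.98 to 6.11 and 4.03 to 5.09 in the same order. Leukocyte markers, 4 of 10, summed to 5.0 to 5.48, 4.84 to 5.15 and 3.91 to 4.83. The fibroblast markers named (Col1a1, Col1a2, Col3a1, Dpt and Postn) and the leukocyte markers named (Cd14, Emr1, Lyz2 and Ms4a1) are themselves members of the matrix, fibroblast and macrophage lists above, so these sums are no separate check of those lists.

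Endothelial markers, 3 of 8, summed to 4.04 to 4.49 in sham miR-150 cKO, 4.37 to 4.5 in MI miR-150 fl/fl and 3.67 to 4.51 in sham miR-150 fl/fl. Of these, Aplnr, the apelin receptor, and Mmrn2, a vessel matrix protein, were lower past the limits in sham miR-150 cKO, by 1.1 and 0.64 on the log2 scale, and Icam2 differed by -0.10. All 3 were named as lower in MI miR-150 cKO than in MI miR-150 fl/fl. That choice favours a high MI miR-150 fl/fl level, and 3.27% of all transcripts were lower past the limits. The adipocyte markers, 3 of 7, summed to -0.65 to 0.62 in sham miR-150 cKO, 0.34 to 1.84 in MI miR-150 fl/fl and -0.44 to 0.01 in sham miR-150 fl/fl. None of the 5 smooth muscle markers was named, and an unnamed marker was not analysed here.

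**Figure D5:**
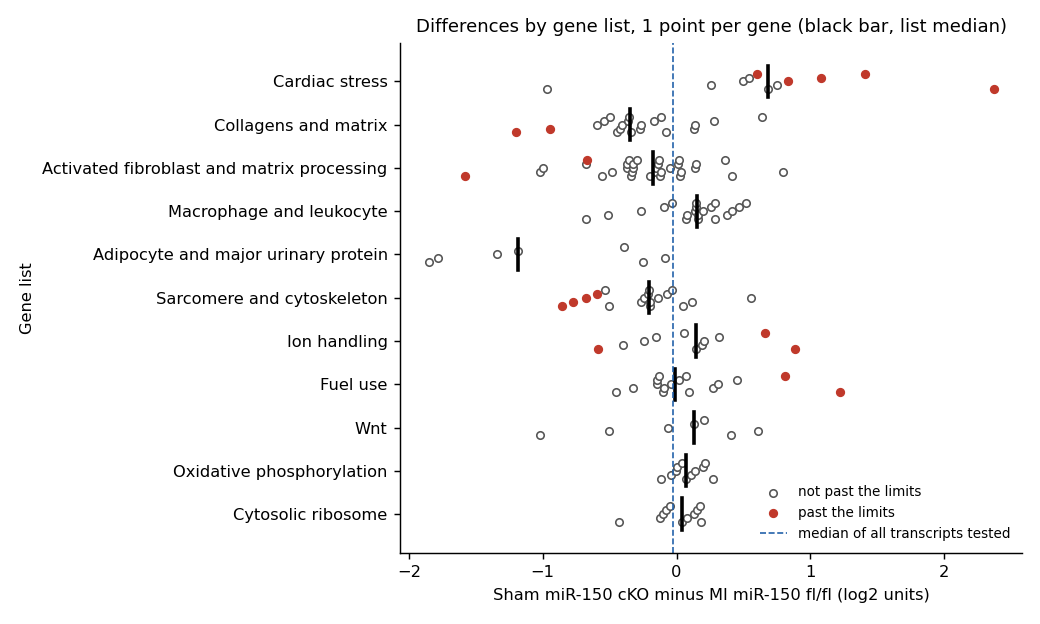
Sham miR-150 cKO minus MI miR-150 fl/fl (log2 units) for each named gene of 11 lists (points, filled where past the fold and p limits), with list medians (black bars) and the median of all 54232 transcripts tested (dashed line). The stress list has a median of 0.69, the matrix list -0.35, the fibroblast list -0.18 and the macrophage list 0.15.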

How the data were processed

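Left ventricle mRNA, left after rRNA removal, was labelled with Cy3 and hybridised to 1-colour Agilent arrays, which the authors read with Agilent Feature Extraction 11.0.1.1 per the labels. The deposited scanner files give each spot's processed signal as an intensity, already background-corrected, with flags for signal above background; the deposited series table gives the authors' normalized log2 values. Here log2 intensities were reduced by each array's 75th percentile, control spots and flagged spots were left out, and the 54232 of 60819 probes with a signal well above background on 3 or more of the 12 arrays were tested. limma 3.58.1 (R 4.3.3) fitted 4 group means on 12 arrays, with Benjamini-Hochberg adjustment. The fit was tested on simulated data. Figures used matplotlib.

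Probes were named through 963 entries of a supplementary table of the study, each matched to 1 probe by its values within a tolerance of 2e-05, giving 892 probes and 863 symbols; for several probes of a gene the brightest stands. That table also holds the authors' comparisons, which were not used as results. Named genes were the members of the lists, plus the 5 largest differences each way past the limits, without overlap and above background on all arrays of the brighter group. Some genes of the lists are not reported here and were left out of the lists' counts and medians. The members and lists were chosen with earlier results of these data known. Mice were separate animals per the labels. Scan and row came from the file headers. The number of arrays limits the precision. Alternatives were quantile normalization, normexp with an offset of 50, the authors' values, 2 other filters, 6 arrays only, an unpaired test, sex, replicate, scan and row as terms, the shared scan, and leaving out each array.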

Additional observations from a re-analysis of the deposited data

How the results depend on the processing

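Counts of transcripts past the limits moved with the processing, and the cause was not tested. Against 415 higher, there were 155 with normexp background correction, 182 by the unpaired 2-tailed test, 733 with no filter on dim probes, 838 with scan as a block and 1877 with scan and row as blocks. Against 1772 lower, there were 1172 with quantile normalization, 423 with normexp, 1160 from the authors' values, 856 with a filter on all 12 arrays, 494 by the unpaired test and 4230 with scan and row as blocks. Transcripts at an adjusted p under 0.05 by limma, 0 at first, numbered 1 with no filter, 1 with the filter on all arrays, 2 with scan as a block and 217 with scan and row as blocks. When single arrays were left out, higher counts ran from 228 (without MI miR-150 fl/fl replicate 2) to 1140, lower counts from 581 to 3926 and adjusted counts from 0 to 824. Each of the upper ends came without sham miR-150 cKO replicate 1, and 581 came without sham miR-150 cKO replicate 2; without MI miR-150 fl/fl replicates 1 and 3, the higher counts were 662 and 835, and without its replicate 2 the lower count was 952. The median difference of the fibroblast list ran from -0.32 to -0.11. That of the ion handling list ran from -0.0021 (without MI miR-150 fl/fl replicate 1), below 0, to 0.35 (without MI miR-150 fl/fl replicate 3). Beside 0.69, the stress median was 0.37 without sham miR-150 cKO replicate 2 and 1.1 without replicate 3, and that of the matrix list ran from -0.46 to -0.27. None of the genes past the limits that were recomputed changed sign under any alternative run.

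Deviations of same-numbered arrays from their group means correlated at -0.25, -0.28 and -0.10, which gave no sign of pairing. For replicates 1 and 3 the same-numbered arrays lay in different rows or scans, so these values cannot settle whether the numbers paired mice. With a replicate block 415 were higher, 1835 lower and 0 at an adjusted p under 0.05 by limma. Signal near background limits, among others, Get4, Lrrc15, Lect1, Tff3, Cd6, Unc119b, Fhl1, Tnnt3, Plac8, Kcnj6, Esrrb and all Wnt genes other than Bcl9 and Fzd2.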
